A study of Arabidopsis thaliana with 15 samples.

Results

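BG5, AT4G26830, CEL3 and BGLU14 are 4 Arabidopsis genes of glycosyl hydrolases, enzymes that cut the bonds between sugar units, and they were picked by name because their signal was known to be higher in growing pollen tubes than in grains. They are 4 of the 15196 genes with a named probe set (a group of oligonucleotides on the array that reads 1 transcript) among 22746 probe sets. BG5 (AT5G20340, chromosome 5) and AT4G26830 (chromosome 4) encode β-1,3-glucanases of family GH17. CEL3 (AT1G71380, chromosome 1) encodes an endo-1,4-β-glucanase of family GH9, and BGLU14 (AT2G25630, chromosome 2) a β-glucosidase of family GH1. Since the rise in tubes chose the genes, their values in the contrasts of either kind of grown tube with dry pollen, and of 4 h tubes with 0.5 h tubes, are given here as a description with no test.

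All pollen came from wild-type Columbia (Col-0) plants, and each array was hybridised with RNA of a separate biological replicate. Dry pollen was collected by vacuum from mature flowers and frozen (4 arrays), and in vitro tubes were grown in liquid medium for 0.5 h (0.5 h PT, 4 arrays) or 4 h (4 h PT, 4 arrays). Semi-in vivo tubes (SIV PT, 3 arrays) grew through the stigma and style of cut pistils, for which the study used the male sterile ms1 line, and were excised as bundles after they had emerged onto solid medium. Each SIV PT sample pooled bundles of a large number of pistils. The sample labels give 3 h in the pistil and 5 h on the medium, whereas the protocol text gives a shorter time on the medium. The dry pollen and in vitro samples started from 5 µg of total RNA and the SIV PT samples from 2 µg. The SIV PT samples also held only excised tube bundles, and their growth time differed from that of the in vitro samples. Amount of RNA, medium, growth time, excision and passage through the pistil cannot be told apart in comparisons with SIV PT. Not every grain of the in vitro samples had formed a tube, and in such bulk samples fewer cells with a transcript and less transcript per cell cannot be told apart.

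The pollen tube wall is built in layers, with pectin at the tip and an inner sheath rich in callose, a β-1,3-glucan, behind it, together with some cellulose, a β-1,4-glucan. Callose also seals off old parts of the tube as plugs. β-1,3-glucanases hydrolyse callose, endo-1,4-β-glucanases act on cellulose and related β-1,4-glucans, and β-glucosidases release glucose from the ends of short glucans or from glucosides. The substrates of these 4 enzymes in the pollen tube are not given by these data.

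Oligonucleotides that the study designed for 2 of the 4 genes are shown here, 1 pair for the transcript of CEL3 and 1 pair for the gene of BGLU14. The first pair was listed for RT-PCR of CEL3, and the second for genotyping an insertion line of BGLU14. All are written 5′ to 3′ as listed, in lower case throughout.
CEL3 left primer: cgaataacccgtattacgcaaa
CEL3 right primer: ggcgtaagttgtgagcaagaat
BGLU14 right primer: tctcgagacataaatcataaagacg
BGLU14 left primer: ctttgattgcttctccgtgag
The CEL3 primers are 22 bases each, with 40.9% and 45.5% G or C, and the BGLU14 primers are 25 and 21 bases long with 36.0% and 47.6%.

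The 4 genes shared a low level in grains and a high level in tubes, but their highest condition was not the same. BG5 had its highest mean in 4 h PT, and AT4G26830 and CEL3 had theirs in SIV PT. BGLU14 was high in both kinds of tube, with arrays that overlapped. Levels below are array signals, which were set so that the trimmed mean of each array was about 500, and a probe set was called expressed where its mean log2 signal reached 8. By that limit 2 of the 4 genes (BG5 and CEL3) were expressed in dry pollen, 3 in 0.5 h PT (BGLU14 in addition) and all 4 in 4 h PT and SIV PT.

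**Figure D1:**
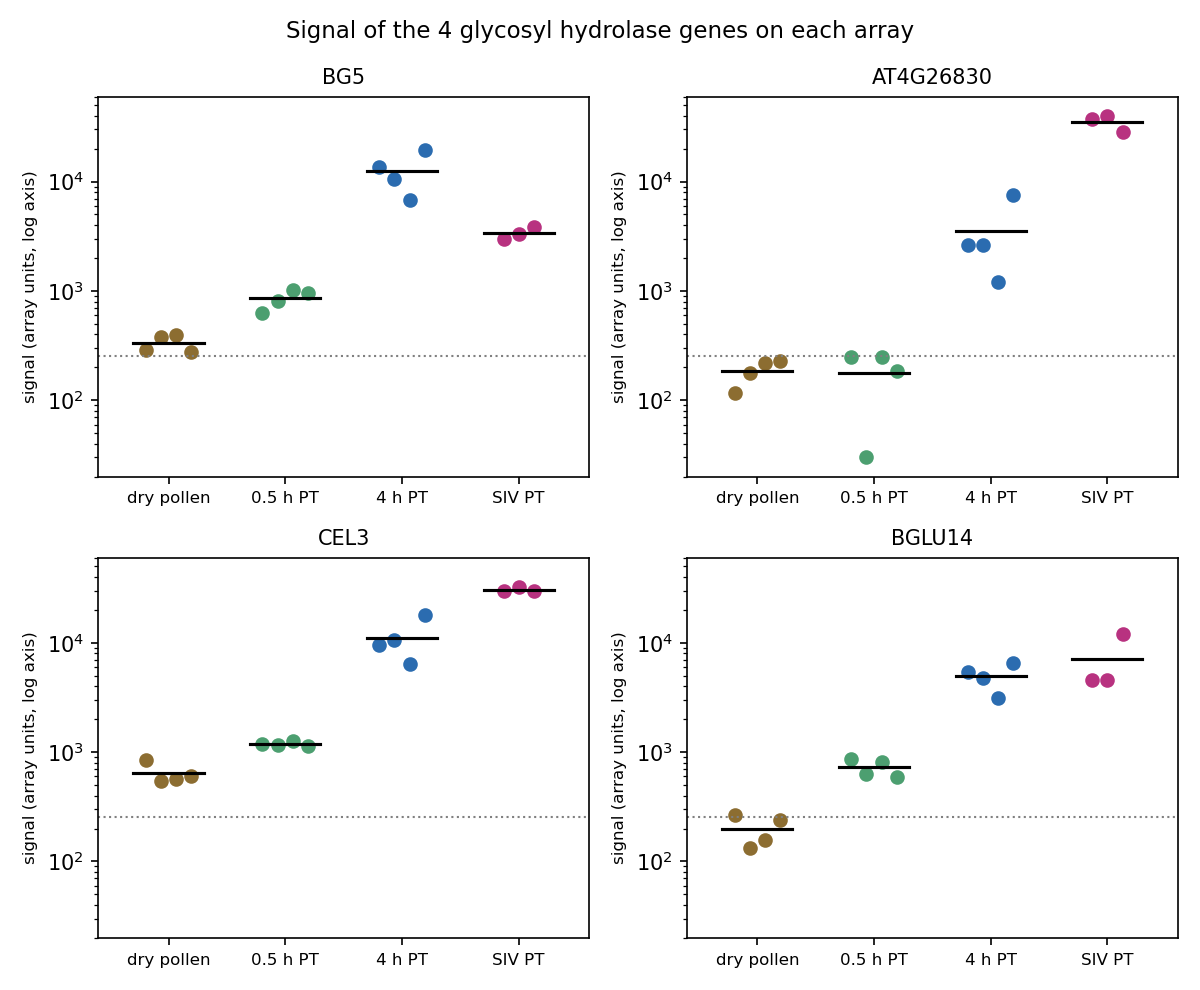
Signal of each gene on each of the 15 arrays (points, log axis, array units), by condition, with the mean of each condition as a black line and the limit for an expressed probe set as a dotted line. BG5 is highest in 4 h PT (mean 12574 against 3377 in SIV PT), AT4G26830 and CEL3 are highest in SIV PT (means 35147 and 30658), and the 4 h PT and SIV PT arrays of BGLU14 overlap.

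BG5 was detected at 287, 379, 392 and 274 on the 4 dry pollen arrays. In 0.5 h PT its signals were 631, 808, 1026 and 952, all above the dry pollen arrays. It reached 13567, 10494, 6738 and 19498 in 4 h PT. In SIV PT it stood at 3003, 3319 and 3809, below the lowest 4 h PT array and above the highest 0.5 h PT array. Its levels therefore went down from 4 h PT to SIV PT, then to 0.5 h PT and last to dry pollen, and no 2 neighbours in that order overlapped.

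AT4G26830 gave 117, 179, 218 and 230 in dry pollen. The 0.5 h PT arrays read 250, 30.2, 249 and 186, so that 0.5 h PT and dry pollen overlapped and neither mean reached the limit for expression. In 4 h PT the signals were 2627, 2638, 1216 and 7512. They stood at 37194, 39642 and 28605 in SIV PT, where the lowest array was above the highest 4 h PT array. Its mean in SIV PT was 35147 ± 5796 (SD, n = 3) against 186 ± 51.0 (SD, n = 4) in dry pollen.

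CEL3 started from 850, 548, 574 and 608 in dry pollen. In 0.5 h PT it gave 1181, 1167, 1256 and 1150, a narrow range that lay above all dry pollen arrays. The 4 h PT arrays read 9540, 10521, 6460 and 17934. In SIV PT the signals were 30098, 32183 and 29694, and these 3 arrays had a coefficient of variation of 4.36%, against 43.8% for the 4 h PT arrays. Its highest condition was SIV PT, followed without overlap by 4 h PT, then 0.5 h PT, then dry pollen.

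BGLU14 signals were 265, 134, 157 and 239 in dry pollen. They were 872, 638, 818 and 595 in 0.5 h PT, above every dry pollen array. In 4 h PT the arrays read 5370, 4737, 3118 and 6522, and in SIV PT 4575, 4611 and 11954. SIV PT replicates 1 and 2 lay inside the 4 h PT range and replicate 3 above it, so that the order of these 2 conditions was not fixed by the arrays. Both lay above 0.5 h PT, which lay above dry pollen.

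For comparisons, log2(signal + 64) was fitted with limma over all 15 arrays, and a probe set was called where its B value, the log odds that it differs, was above 3 and its fold at least 3. Folds below are on this scale and understate changes of weak signals. From dry pollen to 4 h PT all 4 genes were past this limit upwards, as were 163 of 22746 probe sets (0.717%), and all 4 h PT arrays of each gene were above its dry pollen arrays, as for 4.41% of probe sets. This count was fixed by how the genes were picked. The fold was 29.9 for BG5 (log2 change 4.90, SE 0.267), 11.8 for AT4G26830 (3.56, SE 0.457), 14.9 for CEL3 (3.90, SE 0.242) and 18.8 for BGLU14 (4.23, SE 0.308). AT4G26830 had the widest spread of the 4 in 4 h PT, with a coefficient of variation of 78.8%.

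Most of this rise fell between 0.5 h and 4 h of growth. In 4 h PT against 0.5 h PT the log2 change was 3.70 for BG5, 3.72 for AT4G26830, 3.06 for CEL3 and 2.62 for BGLU14, and all 4 genes were past the limit beside 0.51% of probe sets. The call of AT4G26830 ended when only the 8 arrays of these 2 conditions were fitted. None of the 4 genes had overlapping arrays there, as for 3.54% of probe sets upwards. In SIV PT against dry pollen the log2 change was 7.15 for AT4G26830 (142-fold), 5.45 for CEL3 (43.9-fold), 4.64 for BGLU14 (24.9-fold) and 3.12 for BG5 (8.71-fold). All 4 were past the limit, as were 4.08% of probe sets upwards, and all were without overlap, as were 17.6%.

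The first 0.5 h in medium was not the step for which the genes were picked. Dry pollen and 0.5 h PT were each the lower side of contrasts in that choice, however, so the values below are not free of it. None of the 4 genes passed in 0.5 h PT against dry pollen, where 14 of 22746 probe sets did (0.0615%), although 3 of the 4 genes had an unadjusted limma p under 0.05, as had 6.05% of all probe sets. BGLU14 had a log2 change of 1.61 (95% interval 0.96 to 2.27, limma adjusted p = 0.0634), BG5 of 1.20 (0.63 to 1.77, adjusted p = 0.182) and CEL3 of 0.84 (0.32 to 1.36, adjusted p = 0.428). For these 3 genes every 0.5 h PT array was above every dry pollen array, which was so for 2.15% of all probe sets. AT4G26830 had a log2 change of -0.17 (-1.14 to 0.81, adjusted p = 0.999), with overlapping arrays, and its 0.5 h PT replicate 2 at 30.2 was well under the other 3.

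Tubes grown through the pistil were then compared with tubes grown for 4 h in medium. Both conditions were among those in which the genes were known to be high, and earlier results of these data were known at the choice. The intervals, p-values and B values of the 4 genes in this contrast are therefore not free of that choice. They are given as a description and not as an independent test. The 4 genes divided here. AT4G26830 was 12.0-fold higher in SIV PT (log2 change 3.59, 95% interval 2.54 to 4.64, limma adjusted p = 5.63e-05, B = 4.70) and passed the limit. CEL3 was 2.94-fold higher (1.55, 0.997 to 2.11, adjusted p = 0.000361, B = 2.36), with no overlap between arrays, and missed both the fold and the B limit. BGLU14 did not differ beyond its spread (0.40, -0.31 to 1.11, adjusted p = 0.474).

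BG5 ran the other way. Its level in SIV PT was 3.43-fold lower than in 4 h PT (log2 change -1.78, 95% interval -2.39 to -1.17, limma adjusted p = 0.000253). The arrays did not overlap, but with B = 2.80 it stayed short of the limit of 3. By the rule, 1 of the 4 genes was called higher and 0 lower, beside 2.71% of all probe sets called higher and 2.08% called lower. That split of 616 higher and 474 lower depended on the scaling, with 504 and 505 after quantile normalization, 449 and 488 with the smaller offset and 770 and 407 after median centring. Groups without overlap were common in this contrast, at 15.3% of probe sets higher and 13.2% lower in SIV PT, so that lack of overlap alone does not set BG5 or CEL3 apart from other probe sets. The interval of BG5 lay wholly below 0 and those of AT4G26830 and CEL3 wholly above it. For BGLU14 the direction rested on 1 array, since without SIV PT replicate 3 its log2 change was -0.05.

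**Figure D2:**
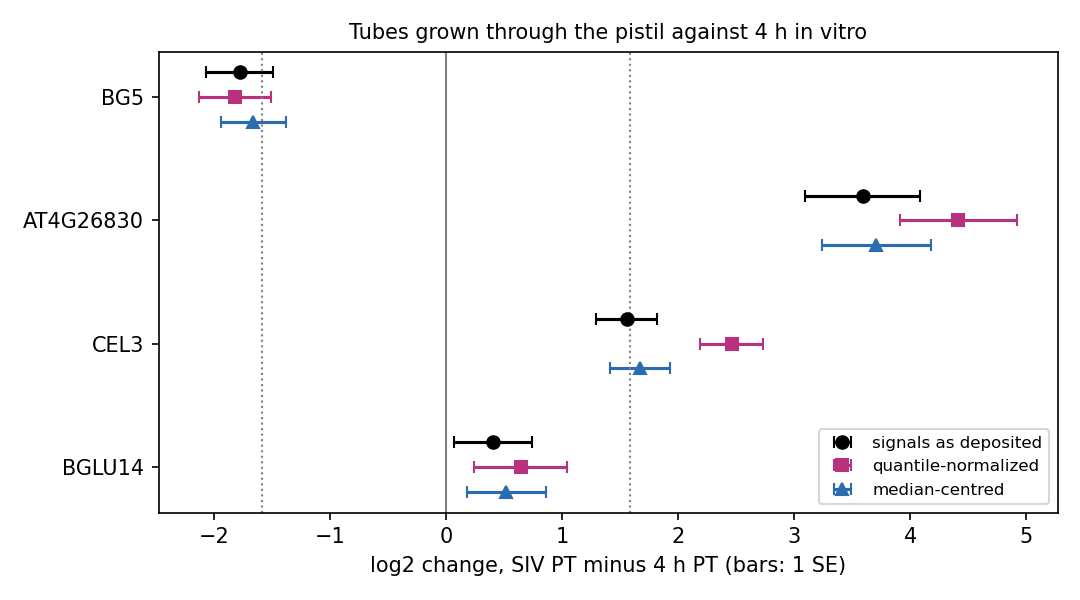
Log2 change of each gene in SIV PT against 4 h PT (x axis; points, with bars of 1 SE), from the signals as deposited and after quantile normalization or median centring of the arrays. Dotted lines mark 3-fold. BG5 is below 0 and AT4G26830 and CEL3 above 0 under all 3 scalings, whereas CEL3 moves from 1.55 to 2.46 with quantile normalization.

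The calls of this contrast were near the limit and moved with small choices, but the directions did not for BG5, AT4G26830 and CEL3. AT4G26830 was not past the limit when any 1 of the 3 SIV PT arrays was left out (log2 change 3.50 to 3.73) or when only the 7 arrays of both conditions were fitted. BG5 passed when 4 h PT replicate 3 was left out, at a log2 change of -2.04. CEL3 passed without 4 h PT replicate 4, at 1.82.

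The 4 h PT arrays differed among themselves in the same order for these genes. In all 4 genes replicate 4 was highest and replicate 3 lowest. The ratio of replicate 4 to replicate 3 was 6.18 for AT4G26830, 2.89 for BG5, 2.78 for CEL3 and 2.09 for BGLU14. The same order held for 77 of the 112 other probe sets called higher in 4 h PT than in 0.5 h PT (68.8%), whose median ratio was 3.04. It held for 408 of 4997 other probe sets expressed in 4 h PT (8.16%), with a median ratio of 0.951. The spread of the 4 genes in 4 h PT thus ran in the order of many other probe sets that were higher at this time, and this order was seen after the values were known.

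**Figure D3:**
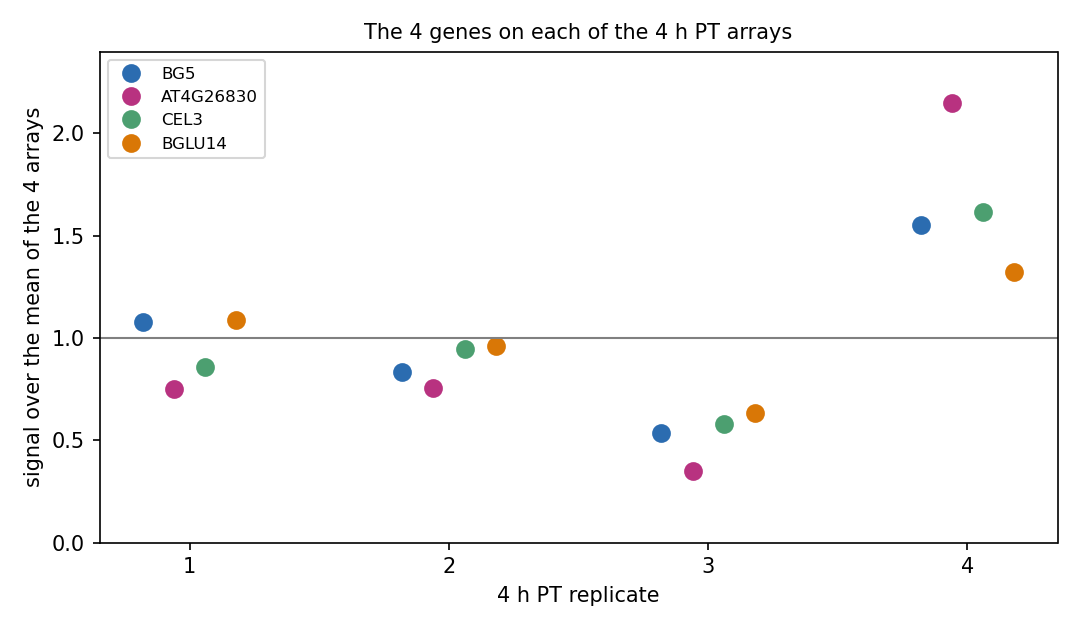
Signal of each gene on the 4 arrays of 4 h PT, divided by the gene's own mean over these arrays (y axis, ratio; x axis, replicate). All 4 genes are highest on replicate 4 and lowest on replicate 3, with ratios between these arrays of 2.09 to 6.18.

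Within GH17, the family of BG5 and AT4G26830, 42 other genes had a probe set and 7 of them were expressed in at least 1 condition. BETAG4, which RefSeq places next to BG5 on the chromosome and which also encodes a β-1,3-glucanase, rose in both kinds of tube. Its 4 dry pollen arrays read 179, 178, 148 and 120, and its 0.5 h PT arrays 304, 268, 304 and 313. In 4 h PT it reached 3189, 3705, 1274 and 3811, and in SIV PT 6618, 8000 and 8052. Against dry pollen its log2 change was 3.69 at 4 h and 5.12 after the pistil, and both were called, whereas the 1.43 between the 2 kinds of tube (limma adjusted p = 0.00194, B = 0.29) was not. BG5 thus had its highest mean in 4 h PT and its neighbour BETAG4 in SIV PT. The difference between the 2 genes was not tested, nor was whether either probe set also reads the other transcript.

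No other GH17 gene on the list was called higher in any comparison. AT3G04010 was higher in SIV PT than in dry pollen (log2 change 1.27, limma adjusted p = 0.000201, B = 2.68) but missed both the fold and the B limit. AT5G20390 and AT3G55430 did not pass between dry pollen and 4 h PT, and both fell in SIV PT. The mean signal of AT5G20390 was 60015 ± 4540 (SD, n = 4) in dry pollen, 67905 ± 10633 (n = 4) in 4 h PT and 5829 ± 749 (n = 3) in SIV PT, a log2 change of -3.52 from 4 h PT to SIV PT (limma adjusted p = 4.32e-09). AT3G55430 changed by -2.06 on the log2 scale in that step (adjusted p = 6.5e-08) but by -1.21 after quantile normalization, which ended its call. Without the 2 picked genes, 1 GH17 gene rose and 2 fell in SIV PT against dry pollen and 39 did not pass, beside 4.08% of all probe sets higher and 2.82% lower, and with a list median of -0.18 against -0.06 over all probe sets. After quantile normalization 1 fell, since AT3G55430 was then at -1.49.

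Of the 15 other GH9 genes measured, 5 were expressed and none passed in 4 h PT against dry pollen, where GH9B5 was at 1.05 (limma adjusted p = 0.00258), short of the fold. GH9B5 rose in SIV PT against dry pollen, from a mean of 1600 to 6962 (log2 change 2.08, adjusted p = 4.43e-07). GH9B11 and GH9A4 had level signals in dry pollen and in vitro tubes and fell in SIV PT against 4 h PT by 1.66 and 1.59 on the log2 scale (adjusted p = 9.33e-07 and 6.84e-06). Both calls ended under quantile normalization (-0.84 and -0.55) and under median centring (-1.54 and -1.48), and without SIV PT replicate 1 (-1.54 and -1.51), and that of GH9A4 also without 4 h PT replicate 1 (-1.56). CEL3 was thus the only measured GH9 gene called higher in 4 h PT than in dry pollen, a call fixed by how it was picked. The list's median was 0.01 without CEL3 in that comparison, beside 0.01 over all probe sets.

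Among GH1 β-glucosidases, 26 genes beside BGLU14 were measured and 3 were expressed. BGLU15 rose in 4 h PT, from 150, 190, 177 and 133 in dry pollen to 1212, 720, 585 and 1211 (log2 change 2.08, limma adjusted p = 0.000423), and to 1335, 1554 and 2798 in SIV PT (3.05). The 4 h PT call of BGLU15 ended with the larger of the 2 other offsets tried (1.46). BGLU36 read 3827, 4449 and 14806 in SIV PT, and replicate 3 was likewise the highest SIV PT array for BGLU15, DIN2 and BGLU14. How many of all probe sets were highest on that array was not counted. DIN2, a dark-inducible β-glucosidase, rose in SIV PT, with 1390, 1982 and 2134 there and at most 222 on any other array (log2 change 3.16 against 4 h PT, adjusted p = 7.38e-07). A further GH1 probe set, which the study's tables describe as a family 1 hydrolase without pairing it with a single gene, had a mean of 323 in dry pollen, 936 at 0.5 h, 16695 at 4 h and 32245 in SIV PT. It was named outside the rule after its values were seen. On SIV PT replicate 3 it was lowest, at 29206 against 33349 and 34181 on the other arrays of that condition. Its arrays ranked 4 h PT above 0.5 h PT without overlap, like those of BGLU14 and of 3.54% of all probe sets. They also ranked SIV PT above 4 h PT without overlap, as for 15.3% of probe sets, unlike those of BGLU14.

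Callose, the substrate of β-1,3-glucanases, is made by callose synthases, of which 3 of 12 had a named probe set. GSL10 and GSL8 rose in SIV PT against 4 h PT (log2 changes 2.12 and 1.73, limma adjusted p = 2.56e-05 and 5.7e-06), beside 2.71% of all probe sets called higher. Neither passed in 4 h PT against dry pollen (0.60 and 0.65). Most callose synthases on the list had no named probe set, so these values do not describe callose synthesis as a whole. GSL8 was not called in SIV PT against 4 h PT with the larger offset (1.45), after quantile normalization (1.40) or without 4 h PT replicate 2 (1.57), and both calls ended when only the arrays of the 2 conditions were fitted. GSL03 stayed at means of 308 to 406 in all conditions. None of the 4 measured genes of the cellulose synthase and CSLD list passed, with CSLD1, which acts in pollen tube wall synthesis, at -1.43 in SIV PT against 4 h PT (limma adjusted p = 6.98e-06), short of 3-fold.

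**Figure D4:**
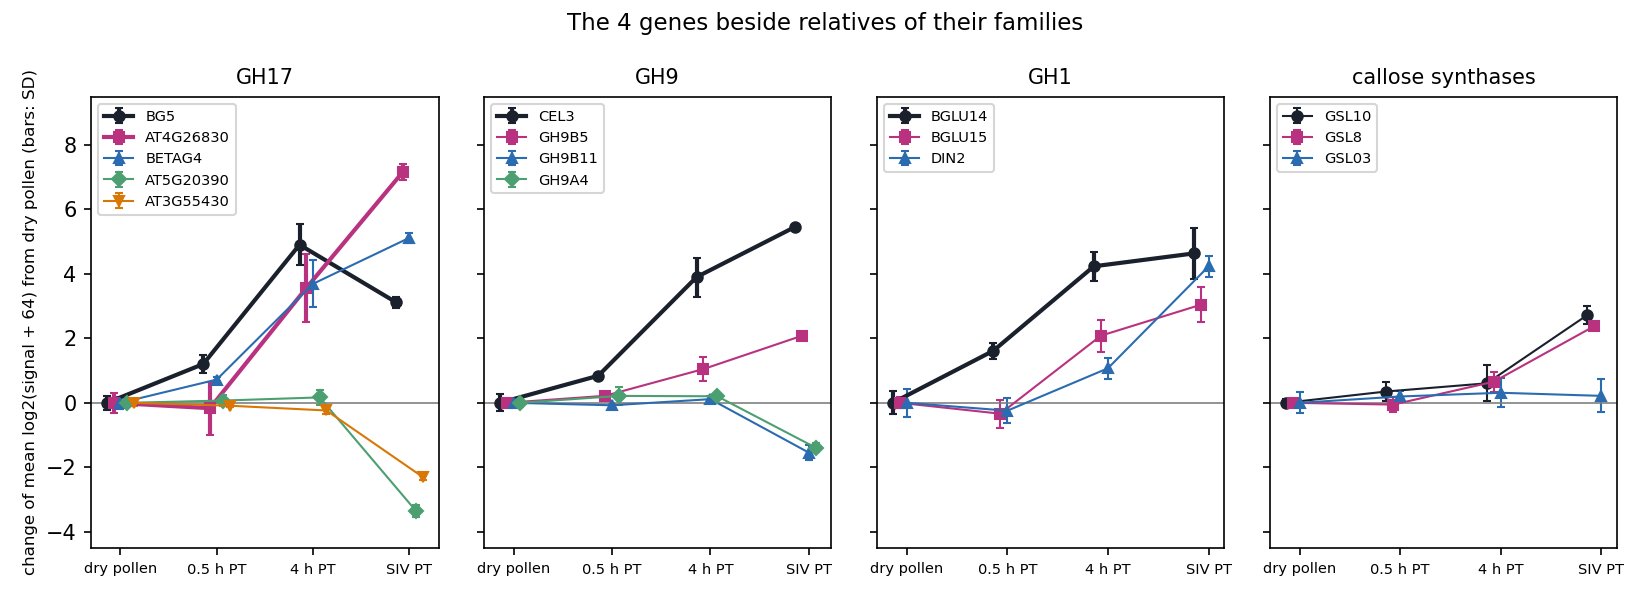
Change of the mean log2(signal + 64) from dry pollen (y axis) in the 4 conditions for the picked genes (thick lines) and for named genes of GH17, GH9, GH1 and the callose synthases (bars, SD over 4 arrays, or 3 in SIV PT). BG5 stands at 4.90 for 4 h PT and 3.12 for SIV PT while AT4G26830 goes from 3.56 to 7.15, and AT5G20390 and AT3G55430 lie below 0 in SIV PT.

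The genes with the most similar course were ranked by Pearson r of log2(signal + 64) over the 15 arrays, among 4533 named and expressed probe sets. These are descriptions, since arrays of 1 condition share that condition. Among the picked genes themselves r ran from 0.692 for BG5 and AT4G26830 to 0.956 for AT4G26830 and CEL3. For BG5 the nearest were AT5G10695 (r = 0.967), AT3G62010 (0.954), the small heat shock gene ATHSP22.0 (0.936), AT5G46780 (0.924) and the expansin gene EXPA16 (0.912). In all 5 the SIV PT mean was below the 4 h PT mean, in 3 of them without overlap, as for 13.2% of all probe sets. Ranking by r with BG5 over these same arrays favoured that direction, so it is no separate result. AT5G10695 for example had 3312, 3434, 4162 and 4558 in 4 h PT and 1502, 1839 and 1870 in SIV PT.

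AT4G26830 was closest to AGP15 (r = 0.993), which encodes a small arabinogalactan peptide, and then to AT5G09280, AT2G05160, AT4G25040 and AT5G26220 (0.992 to 0.988). AGP15 gave 2539, 3212, 1761 and 7178 in 4 h PT and 22274, 22257 and 21239 in SIV PT. CEL3 was closest to BETAG4 (r = 0.994), followed by SOUL-1, AT1G67640, AT1G27620 and AT3G15860 (0.991 to 0.987). For BGLU14 the nearest were AT4G12980 (0.975), AT3G19690 (0.974), AGD11 (0.966), ROPGEF13 (0.963), an exchange factor of ROP GTPases, and the ABC transporter gene ABCB9 (0.956). AT4G12980 had 11376, 11788 and 11527 on the SIV PT arrays, where BGLU14 spread from 4575 to 11954.

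The arrays of SIV PT stood apart from the others in 2 of 3 RNA measures. The signal ratio of 3′ to 5′ probe sets of the GAPDH control was 6.59 to 9.72 in SIV PT and 1.25 to 2.88 in the other conditions, and the 100 strongest probe sets held 23.3% to 25.0% of the signal against 27.9% to 32.7%. For the ubiquitin control this ratio overlapped, with SIV PT arrays between 3.34 and 4.05 and all other arrays between 2.11 and 3.86. The first 2 measures moved with the contrast in which BG5, AT4G26830 and CEL3 differed, and their part in it was not tested. CNGC18, the 1 of 9 pollen markers with a named probe set, read 2820 to 4882 over all arrays. The 4 of 11 pistil markers that were measured were not expressed in any condition, with summed signals of 128 to 436 in SIV PT and 184 to 408 elsewhere, and the 2 of 6 green tissue markers were not expressed either (158 to 508 in SIV PT, 83.0 to 371 elsewhere).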

How the data were processed

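RNA of 15 pollen samples was hybridised to Affymetrix ATH1 arrays (1 colour). The authors summarised each probe set with GCOS (version not given in the sources used here) as a linear intensity, and the deposited values have a 2% trimmed mean of about 500 on each array. No further scaling was applied. Of 22810 probe sets, 64 controls were left out. Names came from the platform annotation (13431 probe sets) or the identifier columns of the study's supplementary tables (1962, among them BG5, CEL3 and BGLU14), and 6764 had none. Family counts cover named genes only, which were 44 of 51 listed genes in GH17, 16 of 25 in GH9 and 27 of 48 in GH1. Names from the supplementary tables lean to genes the study listed. Family counts may therefore lean to changed genes when set beside shares over all probe sets, which was not tested. Groups came from the sample labels.

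Log2(signal + 64) was fitted with limma 3.58.1 in R 4.3.3, 1 mean per condition, 5 comparisons, Benjamini-Hochberg adjustment over 22746 probe sets, called at B above 3 and 3-fold. The number of arrays limits the precision. The fit was tested on simulated data. Alternatives were other offsets, quantile normalization, median centring, a filter on low values, an adjusted p limit, fewer arrays, a replicate block, an intensity trend and leaving out each array. The study's own comparison columns were not used.

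Named genes were the 4 members, up to 4 passing genes per list and comparison (or the strongest where none passed), the 5 nearest courses per member, and BETAG4. AT3G04010, GSL03 and the further GH1 probe set were added outside this rule. The members and lists were chosen with earlier results of these data known.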

Additional observations from a re-analysis of the deposited data

Results flagged for a closer look

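Signals of 38 probe sets named above were examined in the 3 conditions with 4 arrays for a single array far from the other 3, and 10 of 114 such sets of 4 arrays held one. Chance sets apart about 1 in 20 such sets where values are independent and normally distributed. Many of these probe sets were instead chosen for a similar course over the same arrays, so this rate is no yardstick for the count. For BG5, AT4G26830, CEL3 and BGLU14 no array of these conditions was set apart in this way, and the 3 SIV PT arrays are too few to be examined, BGLU14 replicate 3 at 11954 included.

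Among genes of the wall lists and the pollen marker, the callose synthase gene GSL8 had a signal of 362 on 4 h PT replicate 2, against 573 to 609 on the other 3 arrays. GSL03 had 196 on dry pollen replicate 3, against 341 to 350. CNGC18 had 2820 on 4 h PT replicate 4, against 4240 to 4466.

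The other 7 sets belong to genes whose course was close to that of a picked gene. On 4 h PT replicate 4, the array on which the 4 picked genes were highest, AT5G46780 had 1722 against 742 to 754, AT1G27620 had 2737 against 1091 to 1316, AGD11 had 13045 against 4800 to 6047 and ABCB9 had 11038 against 4383 to 4587. AT3G15860 had 755 on 4 h PT replicate 3, against 1995 to 2077. In dry pollen AGD11 had 499 on replicate 4, against 281 to 316, and ROPGEF13 had 39.6 on replicate 2, against 195 to 204.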

How the results depend on the processing

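Of 332 values of the 4 genes under the alternatives, 315 kept their direction and their side of the limit. The smaller offset gave AT4G26830 3.62 on the log2 scale in SIV PT against 4 h PT, short of the limit. The larger offset called 111 probe sets in 4 h PT against dry pollen (174 in the reported fit) and 5 at 0.5 h (14), and brought BG5 past the limit between the tubes at -1.73. CEL3 passed there at 2.46 after quantile normalization, with its ratio of SIV PT to 4 h PT means at 5.10 instead of 2.76, and at 1.67 after median centring. BG5, unchanged at -1.78, passed under the filter on low values, the adjusted p limit and the intensity trend. BGLU14 at 1.61 passed at 0.5 h under the intensity trend. Fits of the compared conditions alone called 91 probe sets in 4 h PT against dry pollen, 45 against 0.5 h PT (116) and 9 at 0.5 h, and AT4G26830 missed the limit at 3.72 against 0.5 h PT and at 3.59 between the tubes. These fits hold fewer arrays, and for the other changes the cause was not tested.

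Leaving out 1 array moved the SIV PT against 4 h PT change between -2.04 and -1.54 for BG5, 3.20 and 4.05 for AT4G26830, 1.33 and 1.82 for CEL3, and -0.05 and 0.63 for BGLU14. The 0.5 h change of AT4G26830 turned to 0.24 without 0.5 h PT replicate 2 and was called under no alternative. With the replicate block, SIV PT against 4 h PT gave -1.70 for BG5, 3.79 for AT4G26830, 1.63 for CEL3 and 0.45 for BGLU14, and no call of the 4 genes changed. Deviations of same-numbered arrays correlated between -0.113 and 0.142, which cannot show whether the arrays were paired. Replicate numbers were those of the sample labels, and the study's supplementary tables number the 0.5 h PT and SIV PT arrays differently. Of 308 values of the named family genes, alternatives added after the data were seen, 15 lost their call and 0 turned direction.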
